A study of Homo sapiens and Mus musculus with 16 samples.

Results

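AP-1 is built from a small family of genes, and open chromatin at 9 of them was followed in human and mouse pancreatic cancer cell lines by ATAC-seq, which maps DNA that a transposase can reach. The members were FOS, FOSB, FOSL1, FOSL2, JUN, JUNB, JUND, BATF and ATF3 with their mouse orthologs, and a region belonged to a locus where it overlapped the gene body or the 50 kb on either side. The deposited data were 4 region lists, each standing for 4 replicates of 1 group. The 9 loci held 157 of the 118107 regions of HPAF-II control (Cas9) cells, 142 of the 97047 regions of HPAF-II HNF4G-KO cells, 131 of the 68074 regions of the KPC primary tumor cells and 129 of the 80843 regions of the KPC liver mets cells. All 9 members were found in both annotations.

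HPAF-II is a human pancreatic adenocarcinoma cell line. Its control is labelled WT and CRISPR-Cas9, and its knockout is labelled KO and CRISPR-HNF4G-KO, and how the control was prepared is not given in the sources used here. In the study's methods the knockout is a pool of 3 clones cut by Cas9 protein with guides against exons of HNF4G, a nuclear receptor of the gut and pancreas. The KPC cells are 1 cell line from a primary tumor and 1 from a matched liver metastasis of a mouse model of pancreatic cancer, both labelled WT and untreated. Cell lines were compared, so the tissue around a tumor was not sampled. No age, sex or strain enters any comparison here.

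AP-1 proteins carry a basic region that touches DNA and a leucine zipper that joins them in pairs. Fos proteins pair with Jun proteins, Jun proteins can also pair with each other, and BATF and ATF3 join the same network, so which genes are active sets which pairs can form. The pairs bind the 7-letter site TGAGTCA or its reverse complement TGACTCA, and those with ATF or CREB partners also bind the cAMP response element TGACGTCA. Several members are immediate early genes that growth factors and stress switch on within minutes, and AP-1 sites are common in the distal open chromatin of epithelial and cancer cells.

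Sequences that the results turn on are shown first, each as 100 bases read 5′ to 3′ on the strand of its gene. Capitals mark the searched sites named in each case. The first pair lies in the 5′ part of the ATF3 gene, in the strongest region of that locus in the control cells and its mouse counterpart. The human window is chr1:212567204-212567303 (hg38, plus strand) and the mouse window is chr1:191216258-191216357 (mm10, minus strand), both intronic, with the AP-1 site in capitals.
ATF3 intron, human: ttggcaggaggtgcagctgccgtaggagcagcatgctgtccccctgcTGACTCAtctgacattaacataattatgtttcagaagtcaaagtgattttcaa
Atf3 intron, mouse: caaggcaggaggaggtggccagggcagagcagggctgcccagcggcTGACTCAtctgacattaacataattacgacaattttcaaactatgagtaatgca

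The second pair comes from a region deeper in the same gene. The windows are chr1:212595712-212595811 (hg38, plus strand) and chr1:191193753-191193852 (mm10, minus strand), each with an AP-1 site in capitals. The human region holds 2 AP-1 sites, of which 1 is shown, and the mouse region holds 1. The letters around the printed sites differ between the species, so they are not shown as the same site.
ATF3 inner region, human: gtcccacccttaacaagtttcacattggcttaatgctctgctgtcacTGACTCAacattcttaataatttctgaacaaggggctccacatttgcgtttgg
Atf3 inner region, mouse: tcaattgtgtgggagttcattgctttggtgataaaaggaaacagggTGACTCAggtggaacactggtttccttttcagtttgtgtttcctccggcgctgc

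At FOS the capitals mark a CArG box, the letters that serum response factor binds. The windows are chr14:75278469-75278568 (hg38, plus strand) and chr12:85473536-85473635 (mm10, plus strand), and the box begins 312 bases before the annotated start of the human gene and 309 bases before that of the mouse gene.
FOS upstream, human: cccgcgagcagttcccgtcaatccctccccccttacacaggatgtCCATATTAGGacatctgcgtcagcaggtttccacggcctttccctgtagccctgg
Fos upstream, mouse: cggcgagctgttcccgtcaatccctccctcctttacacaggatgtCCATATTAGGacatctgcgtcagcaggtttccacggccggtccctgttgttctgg

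At JUND the capitals mark a cAMP response element 200 bases before the human start, and the same letters lie 214 bases before the mouse start. The human window is chr19:18281769-18281868 (hg38, minus strand).
JUND upstream, human: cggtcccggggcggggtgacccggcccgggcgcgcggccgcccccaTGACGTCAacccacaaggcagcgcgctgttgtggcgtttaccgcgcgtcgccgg

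In the first intron region of FOSL1 the capitals mark an AP-1 site present in both species. The windows are chr11:65899339-65899438 (hg38, minus strand) and chr19:5448808-5448907 (mm10, plus strand).
FOSL1 intron, human: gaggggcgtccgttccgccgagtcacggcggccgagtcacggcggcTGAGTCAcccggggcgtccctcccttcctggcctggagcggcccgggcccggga
Fosl1 intron, mouse: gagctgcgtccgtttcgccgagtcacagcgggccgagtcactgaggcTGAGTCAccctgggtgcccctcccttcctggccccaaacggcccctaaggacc

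Upstream of FOSB a region that was strong in both lists of each pair held 2 AP-1 sites in each species, of which 1 is shown in capitals. The windows are chr19:45455847-45455946 (hg38, plus strand) and chr7:19316953-19317052 (mm10, minus strand).
FOSB upstream, human: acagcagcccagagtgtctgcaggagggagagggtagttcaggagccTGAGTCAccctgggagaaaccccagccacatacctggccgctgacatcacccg
Fosb upstream, mouse: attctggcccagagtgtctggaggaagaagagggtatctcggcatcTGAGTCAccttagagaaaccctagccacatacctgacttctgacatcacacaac

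A further pair of human windows holds an HNF4 or a FOXA site, and a link of these sites to the knockout was not tested. In the region 44.2 kb upstream of FOS (window chr14:75234645-75234744, hg38, plus strand) an HNF4 site and an AP-1 site lie close together, both in capitals. At the start of JUNB (window chr19:12791273-12791372, hg38, plus strand) the capitals mark a FOXA site in the region that was in the control list only.
FOS distal, human: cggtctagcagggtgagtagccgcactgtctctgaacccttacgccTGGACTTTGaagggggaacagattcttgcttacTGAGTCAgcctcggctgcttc
JUNB start, human: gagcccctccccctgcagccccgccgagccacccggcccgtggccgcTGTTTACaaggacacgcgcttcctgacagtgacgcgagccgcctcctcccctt

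Among the promoters of the members, read from 250 bases before to 50 bases after the annotated start, no AP-1 site was found in either species (0 of 9 in each), where 3.98% of 20033 human and 4.59% of 21938 mouse coding promoters held one. The cAMP response element was in JUND and Jund only (2.29% and 2.43% of all promoters), TGTTTAC, the FOXA site, in JUNB and Junb only (2.79% and 3.05%), and AGATAAG, the GATA site, in JUN and Jun only (2.26% and 2.80%). Each of these sites was therefore in the same member in both species. The CArG boxes of FOS and Fos lay outside this window. A match of letters is a description and says nothing of whether a factor was bound.

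The score of a region has no stated scale, so each score was turned into a percentile within its own list, from 0 for the weakest to 100 for the strongest. With 1 list per group there is no replicate error and no test, and the Wilson 95% intervals given for shares cover counting error only. The read depth behind each list is unknown. A shared region was one overlapping the other list of its pair by at least 1 bp. Where it overlapped several, the longest overlap gave its partner (5 of 132 shared control regions of the loci overlapped more than 1). A change of 10 percentile points or more is called a fall or a rise, and smaller changes are given as values. Percentiles of the HNF4G-KO list ran lower for the same region than those of the control (median change of all 88632 shared regions, −4.65 points), and in the KPC pair they ran higher in mets (3.67 points over 62280). Changes ranked among shared regions only are therefore also given for the loci together, for start sites and for some single loci. Changes of single regions are in whole-list percentiles unless stated, and their calls can depend on the ranking. Start-site regions of the 5 epithelial marker genes (EPCAM, CDH1, KRT8, KRT18, KRT19) were in all 4 lists, and those of the 3 hematopoietic markers were in none. Markers of other cell types were open in part. In HPAF-II the 3 fibroblast markers (COL1A1, COL1A2, PDGFRB) had such a region in both lists, as did 1 of 3 hepatocyte markers, and 1 of 3 acinar markers in control and 2 in HNF4G-KO did. In KPC 1 of 3 fibroblast markers (Col1a1) and 1 of 2 endothelial markers (Pecam1) had one in both lists. Endothelial markers in HPAF-II and acinar and hepatocyte markers in KPC had none, and the part of other cell types in the results was not tested. The start-site region of HNF4G was in both HPAF-II lists at percentiles 82.4 and 82.7, and accessibility does not report the edit.

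The start sites of the AP-1 genes stayed open without HNF4G. Each of the 9 had at least 1 region within 1 kb of a start site in both HPAF-II lists, where 74.8% of 20046 coding genes had one in the control list. Comparing the strongest control region of each gene with its partner in HNF4G-KO, 8 of 9 had a higher percentile, with a median change of 3.89 points. Over 14419 coding genes 41.2% were higher and the median was −0.736. Ranked among shared regions only, 8 of 9 were again higher, against 63.4% of coding genes. The level itself was moderate: the strongest start-site regions lay between percentiles 52.5 and 83.8, and the median over coding genes was 85.8.

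**Figure D1:**
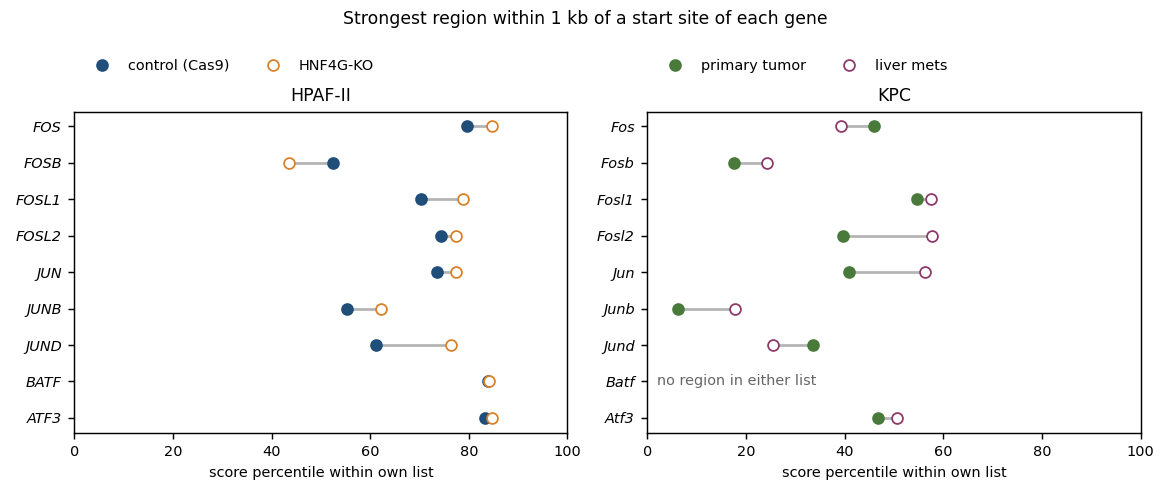
Score percentile, within its own list, of the strongest region within 1 kb of a start site of each AP-1 gene; filled points are the first list of the pair and open points the second. In HPAF-II (left) 8 of 9 genes lie higher in HNF4G-KO and FOSB lies lower; in KPC (right) Fosl2, Jun and Junb lie more than 10 points higher in mets, and Batf has no region. At FOSB and Fosb the strongest region is a different one in each list.

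JUND, which encodes a Jun protein that many resting cells also make, had the start-site region that rose most. The region chr19:18281369-18282549, with the cAMP response element shown above, was at percentile 61.1 in control and 76.3 in HNF4G-KO, a rise of 15.2 points, or 26.1 among shared regions. Of coding genes 4.86% rose and 11.8% fell by 10 points or more at their strongest start-site region. FOS, the founding immediate early gene, had a region centered 1.41 kb upstream at 79.7 and 84.7, and its CArG region chr14:75278120-75278610 was at 59.7 and 67.3. JUN, its main partner, was at 73.5 and 77.4. FOSL1, which encodes Fra-1, was at 70.3 and 78.8 over its start, in a region with TGAGTCA just inside the gene. FOSL2, which encodes Fra-2, was at 74.4 and 77.4. BATF, best known from lymphocytes, was at 83.8 and 84.1 in the region upstream of its start and at 56.5 and 51.0 in the region over it. ATF3, induced by stress, had no region within 1 kb of its outermost start, and its start-site region lay 43.2 kb into the gene at an inner start, at 83.3 and 84.6. Among shared ranks the strongest start-site regions changed by 10.7 points at FOS, 11.0 at JUN and 16.8 at FOSL1. By the same ranking the changes were 9.88 at FOSL2, 4.45 at BATF and 5.70 at ATF3, and the median over coding genes was 1.46.

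FOSB and JUNB differed from the other members at their starts. FOSB had no region over its 5′ end in either list. Its intronic region chr19:45469127-45469955, at an inner start, fell from 52.5 to 34.5. Among shared ranks the change of that region was −7.43, which is below 10 points. The neighboring region was at 40.3 and 43.6. JUNB had its main region 1.48 kb upstream, at 55.3 and 62.1 (18.3 points higher among shared ranks). The narrow region over the start, chr19:12791305-12791582, was in the control list only. That region was weak, at percentile 12.5, and holds the FOXA site shown above.

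The loci as a whole differed among themselves, and ATF3 and JUN stood lowest. Over the 132 shared regions of the 9 loci the median change from control to HNF4G-KO was −0.894 points, against −4.65 over all shared regions, and 3.88 against 0.676 when only shared regions were ranked. Falls numbered 31 of 132 (23.5%), where 33.6% of all shared regions fell, and rises numbered 9 (6.82%), where 7.75% of all rose. By the strongest overlapping region 30 fell and 9 rose. The balance turned with the ranking: among shared ranks 14 fell (10.6%, against 17.1% of all) and 43 rose (32.6%, against 20.5%). Of the 31 falls, 24 lay more than 1 kb from any start site, and 25 lay further than 1 kb from coding start sites. Over all shared regions 26273 of 29739 falls lay further than 1 kb from coding start sites, a larger share. The 88 shared regions further than 1 kb from coding start sites had a median change of −2.21 points, against −6.12 over all such regions. Median changes were −10.5 points at ATF3 and −9.16 at JUN, and between −1.14 and 1.21 at the other 7 loci. Among 7707 coding genes with at least 10 shared regions in the same window, 5.88% had a lower median than ATF3 and 8.52% a lower one than JUN (7.50% and 2.40% among shared ranks). JUNB moved most with the ranking: its median was −1.14, and among shared ranks it was 10.1, above that of 97.1% of these genes. The medians of FOSB and FOSL1 went from −0.350 to 3.47 and from 1.21 to 6.23. ATF3 and JUN lie on chromosome 1, where the median over all shared regions was −4.43.

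**Figure D2:**
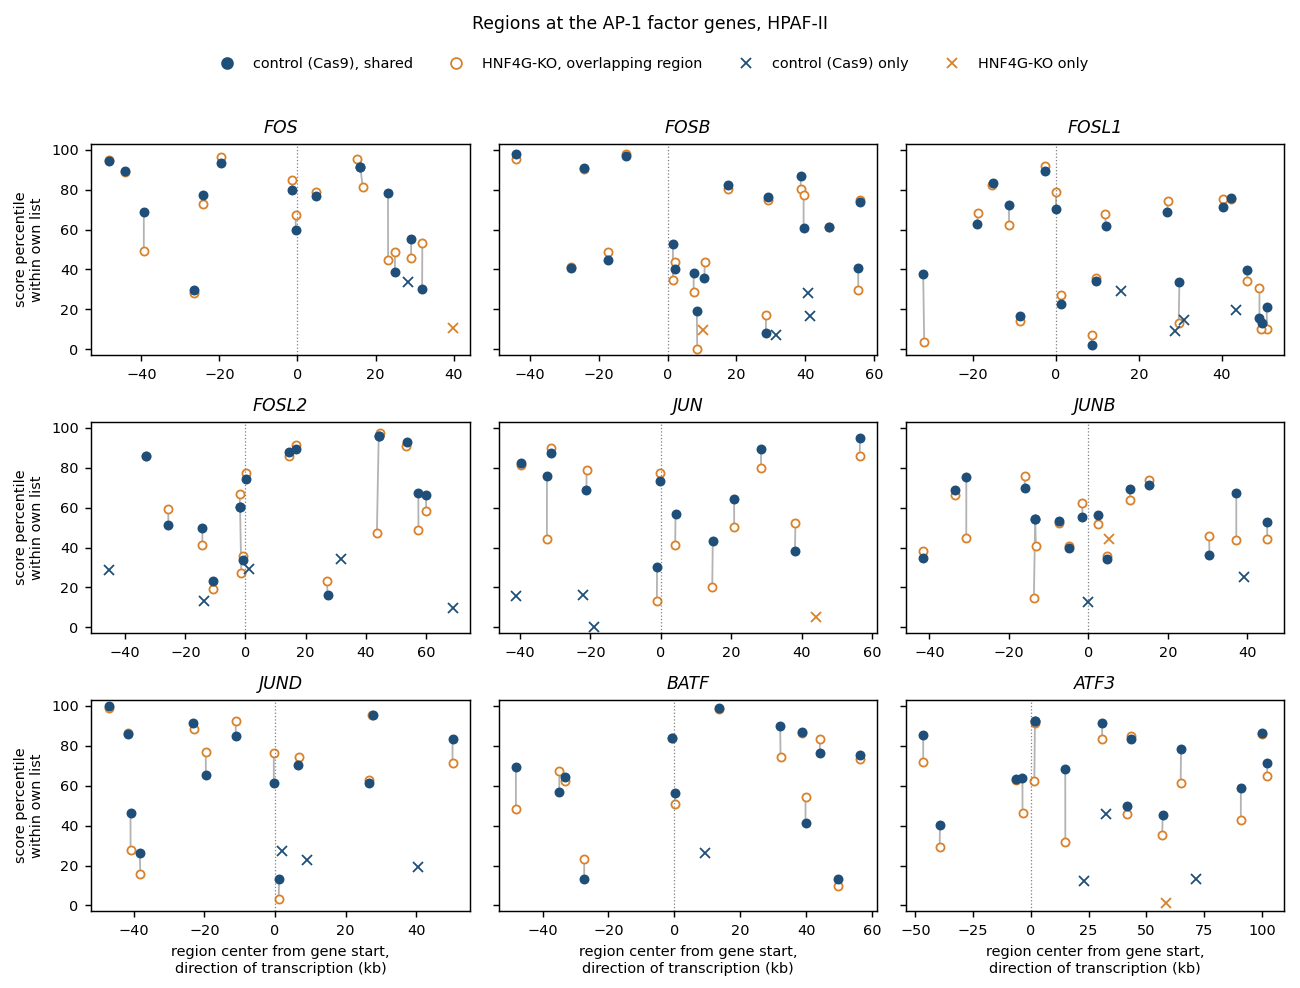
Score percentile within its own list (vertical axis) of every region at the 9 AP-1 genes in HPAF-II, by distance of its center from the gene's outermost start in kb, positive in the direction of transcription (horizontal axis). Filled points are control regions, joined by gray lines to the open points of all overlapping HNF4G-KO regions, and crosses are regions in 1 list only. Most gray lines at ATF3 run downward, and the crosses sit in the lower part of each panel, none above 45.8.

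At ATF3, 13 of 14 shared regions had a lower percentile in HNF4G-KO and 8 fell by 10 points or more. Ranked among shared regions only, 7 of 14 were lower, so the count of small decreases depends on the ranking. In HPAF-II the largest fall at any AP-1 gene was in an ATF3 intron 14.9 kb from the start (chr1:212579916-212580471), from 68.1 to 31.8. That region holds a FOXA site. The strongest region of the locus in the control list, the intronic chr1:212566608-212567556 at percentile 92.4, overlapped 2 separate HNF4G-KO regions. The longer overlap was with chr1:212566638-212566994 at 62.3, and this is 1 of the 8 falls. The other, chr1:212567109-212567462, which spans the AP-1 site shown first above and a FOXA site, was at 91.6, and paired with it the control region did not fall (7 falls in place of 8). The median change of the locus was then −8.98. Regions 46.6 kb upstream (85.6 to 72.1), 3.66 kb upstream (63.9 to 46.1) and 65.0 kb downstream of the start (78.5 to 61.4) also fell. Control regions of ATF3 with FOXA letters numbered 4 and those with AP-1 letters 7, with 2 regions in both counts. All of them had a lower percentile in HNF4G-KO, with median changes of −21.8 and −10.8 by the longest overlap and −10.7 and −7.90 by the strongest overlapping region. Since 13 of 14 shared regions of the locus were lower, the direction does not set regions with these letters apart.

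At ATF3 the deep intronic region shown as the second sequence pair, centered 30.8 kb into the gene, was at 91.2 and 83.3. The region at the inner start, at 83.3 and 84.6, was the only shared region of the locus with a higher percentile. HNF4 letters (CAAAGTCCA) were in 0 of the 17 control regions of ATF3. Over all shared regions those with FOXA letters had a median change of −3.88 (9696 regions) and those with HNF4 letters −6.50 (1464 regions). The median was −4.65 over all shared regions and −6.12 over those further than 1 kb from coding start sites.

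JUN had 12 shared regions, of which 8 had a lower percentile in HNF4G-KO and 5 fell. The intronic region 32.3 kb upstream, chr1:58816138-58816646, went from 75.7 to 44.04, and the region 14.7 kb downstream of the start, chr1:58769077-58769582, from 43.4 to 20.4. A region with AP-1 letters 4.15 kb from the start (chr1:58779419-58780377) went from 57.0 to 41.2. The JUN promoter region was at 73.5 and 77.4, and the weaker region just upstream, centered 1.1 kb before the start, went from 30.3 to 13.0. A region 38.1 kb downstream rose from 38.1 to 52.3. The strongest region of the locus that lay away from start sites, 56.5 kb downstream, was at 94.7 and 85.8.

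At FOS the median change was −0.0529 points, and 2 regions fell and 2 rose. The intergenic region chr14:75301716-75302318, 23.2 kb downstream of the start and with AP-1 letters, fell from 78.1 to 44.7. Further downstream, at 31.9 kb, chr14:75310582-75310939 rose from 30.3 to 53.5, the largest rise at any AP-1 gene in HPAF-II. The region 39.4 kb upstream fell from 69.0 to 49.5, and the one 25.0 kb downstream of the start rose by 10.1 points to 48.7. The region upstream with the HNF4 site and the AP-1 site was at 89.3 in control and 88.9 in HNF4G-KO. The strongest region, 48.4 kb upstream, was at 94.6 and 94.8. Of the 3 control regions with HNF4 letters at the 9 loci, the other 2 were 8.56 kb into FOSL1 (2.27 and 7.12) and 38.3 kb upstream of JUND (26.2 and 15.8).

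The other loci each held a few large changes around medians that lay near 0 when ranked in the whole lists. At JUNB, chr19:12760579-12761018 fell from 75.2 to 44.7 at 30.7 kb upstream, near HOOK2, and a region 37.2 kb downstream near RTBDN fell from 67.3 to 43.8. At FOSL1 a region 32.1 kb upstream fell from 37.6 to 3.58, while the strongest distal region, 2.72 kb upstream, was at 89.2 and 91.6. At FOSB the start-site region of VASP, a neighbor that encodes an actin regulator, rose from 60.7 to 77.4, and the upstream region with 2 AP-1 sites was at 96.9 and 97.8. At BATF the strongest region, in an intron 13.7 kb from the start, was at 98.7 and 98.6, and a region 32.1 kb from the start with AP-1 letters fell from 89.9 to 74.2. At JUND the strongest region of all 9 loci, 47.1 kb upstream, was at 99.7 and 99.1. At FOSL2 only 1 of 14 shared regions fell, 57.5 kb from the start (67.4 to 48.9), and none rose.

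**Figure D3:**
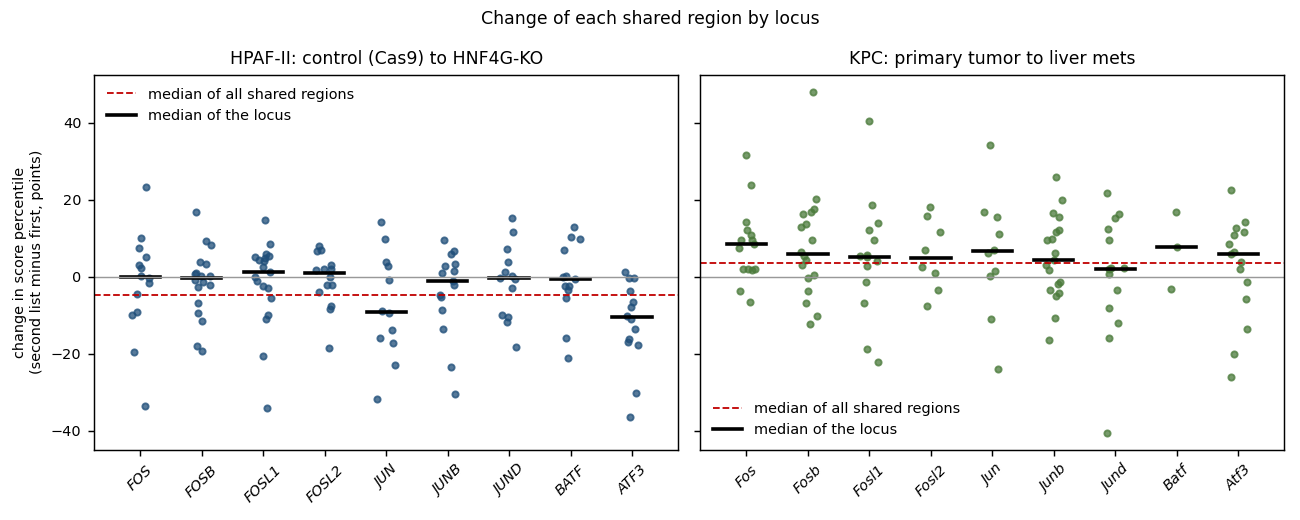
Change in score percentile (second list minus first, in points) of each shared region, by AP-1 gene; each point is 1 region, black bars are locus medians and the dashed line is the median over all shared regions of the pair. In HPAF-II (left) the ATF3 and JUN bars lie at −10.5 and −9.16, below the dashed line at −4.65, and the other 7 lie above it; in KPC (right) 8 of 9 bars lie above the dashed line at 3.67, and Jund lies below it.

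The share of regions in the control list only was lower at the AP-1 genes than over the whole list. Of the 157 control regions 25 had no overlap in HNF4G-KO, which is 15.9% (11.0 to 22.5) against 25.0% of all control regions and 20.2% of control regions in the same score deciles. The interval includes the second value. Of the 142 HNF4G-KO regions 5 had no overlap in control, which is 3.52% (1.51 to 7.98). The share was 6.76% of all HNF4G-KO regions and 4.42% of those in the same score deciles, and the interval includes both values. At the loci, regions in 1 list only were weak and narrow. The highest control-only percentile was 45.8, in an ATF3 intron (chr1:212597526-212597777), and their median width was 266 bp against 577 bp for all control regions of the loci. Of the 25, 13 were intronic, 5 intergenic, 4 exonic and 3 in exons with untranslated sequence. By locus the control-only count ran from 1 of 15 at FOS and 1 of 14 at BATF to 5 of 19 at FOSL2.

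Near coding start sites and away from them the picture differed. Within 1 kb of a coding start site, 9 of 53 control regions were control-only (17.0%, against 12.3% of all such regions), and further away 16 of 104 were (15.4%, against 27.9%). Of the 9, 2 were at starts of the members themselves, FOSL2 (chr2:28393359-28393566, percentile 29.3) and JUNB, and 7 were at neighbors such as EFEMP2, MUS81 and FIBP at FOSL1, PPM1N and VASP at FOSB, and RTBDN at JUNB. The 5 HNF4G-KO-only regions lay at FOS (39.7 kb downstream, with HNF4 letters, percentile 10.5), FOSB (in ERCC1, 9.90), JUN (43.9 kb downstream, 5.19), JUNB (5.21 kb downstream, 44.04) and ATF3 (58.2 kb downstream, 1.40). FOXA letters were in 4 of the 25 control-only regions, at FOS, FOSL2, JUN and JUNB, and in 12 of the 132 shared ones. AP-1 letters were in 1 of 25 and in 40 of 132. Control-only regions were narrower (median 266 bp, against 577 bp for all control regions of the loci). These counts were not adjusted for width or set beside all control-only regions of the list.

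**Figure D4:**
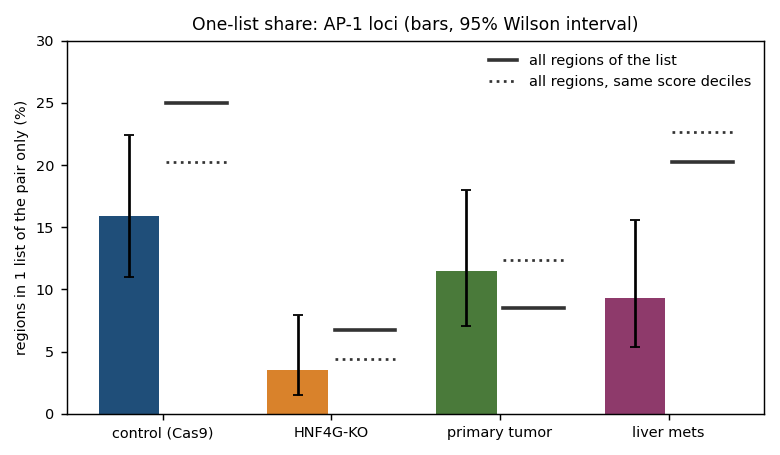
Share of regions at the 9 AP-1 loci found in only 1 list of the pair (bars, percent, with 95% Wilson intervals for counting error), beside the share over the whole list (solid lines) and over all regions in the same score deciles (dotted lines). The control, HNF4G-KO and mets bars, at 15.9%, 3.52% and 9.30%, lie below both lines. The primary tumor bar, at 11.5%, lies between its 2 lines.

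In the KPC lines the start sites of the AP-1 genes were among the weaker ones, and 3 rose in liver mets by whole-list percentile. Of the 9 members 8 had a start-site region in both lists, where 57.9% of 21951 coding genes had one in the primary tumor list, and Batf had none in either list. The strongest ones lay between percentiles 6.21 and 54.7 in primary tumor, with 74.9 as the median over coding genes. Percentiles from primary tumor to mets were 39.6 and 57.7 at Fosl2, 40.8 and 56.4 at Jun and 6.21 and 17.9 at Junb, and these are the 3 rises. Of coding genes 14.8% rose and 9.12% fell by as much. Fos went from 45.9 to 39.3 and Jund from 33.6 to 25.4, which are changes below 10 points in the whole lists. Among shared ranks Fos and Jund fell by more than 10 points, with changes of −12.6 and −12.3. Fosl2 and Jun still rose by this ranking (13.9 and 11.2 points), and the change at Junb was 6.71, below 10 points. Fosl1 was at 54.7 and 57.6 and Atf3, at its inner start, at 46.8 and 50.6. Ranked among shared regions only, 4 of 8 members were higher and the median change was −0.161, against 48.1% and −0.240 over coding genes.

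Fosb and Junb again had weak regions at their starts. At Fosb the region just upstream of the start, chr7:19310278-19310501, with a CArG box 266 bases upstream, rose from 6.53 to 24.2, and the broader region at an inner start was at 17.6 and 23.1. At Junb the region over the start, chr8:84978277-84978767, was near the bottom of both lists at 2.51 and 0.740, while the region 1.32 kb upstream rose as given above. Another Junb region, chr8:84976525-84976766, at an inner start, was in mets only at percentile 2.41.

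Across the loci, percentiles were somewhat higher in mets than in primary tumor, close to what all regions showed. The median change over 116 shared regions was 5.58 points against 3.67 over all shared regions, and 2.56 against 0.988 among shared ranks. Rises numbered 39 (33.6%), where 30.8% of all shared regions rose, and falls numbered 14 (12.1%), where 12.4% of all fell. By the strongest overlapping region 13 fell and 39 rose. Among shared ranks 23 rose (19.8%, against 22.3% of all) and 18 fell (15.5%, against 17.9%), so the excess of rises over falls was smaller. Locus medians ran from 2.12 at Jund to 8.57 at Fos. At Fos 13 of 15 shared regions were higher in mets, and 86.1% of 6119 coding genes had a lower median. Among shared ranks 10 of 15 were higher at Fos, the median was 4.17, and 79.7% of these genes had a lower one. Jund and Junb lie on chromosome 8, where the median over all shared regions was −0.194 and 14.5% of primary tumor regions were tumor-only.

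**Figure D5:**
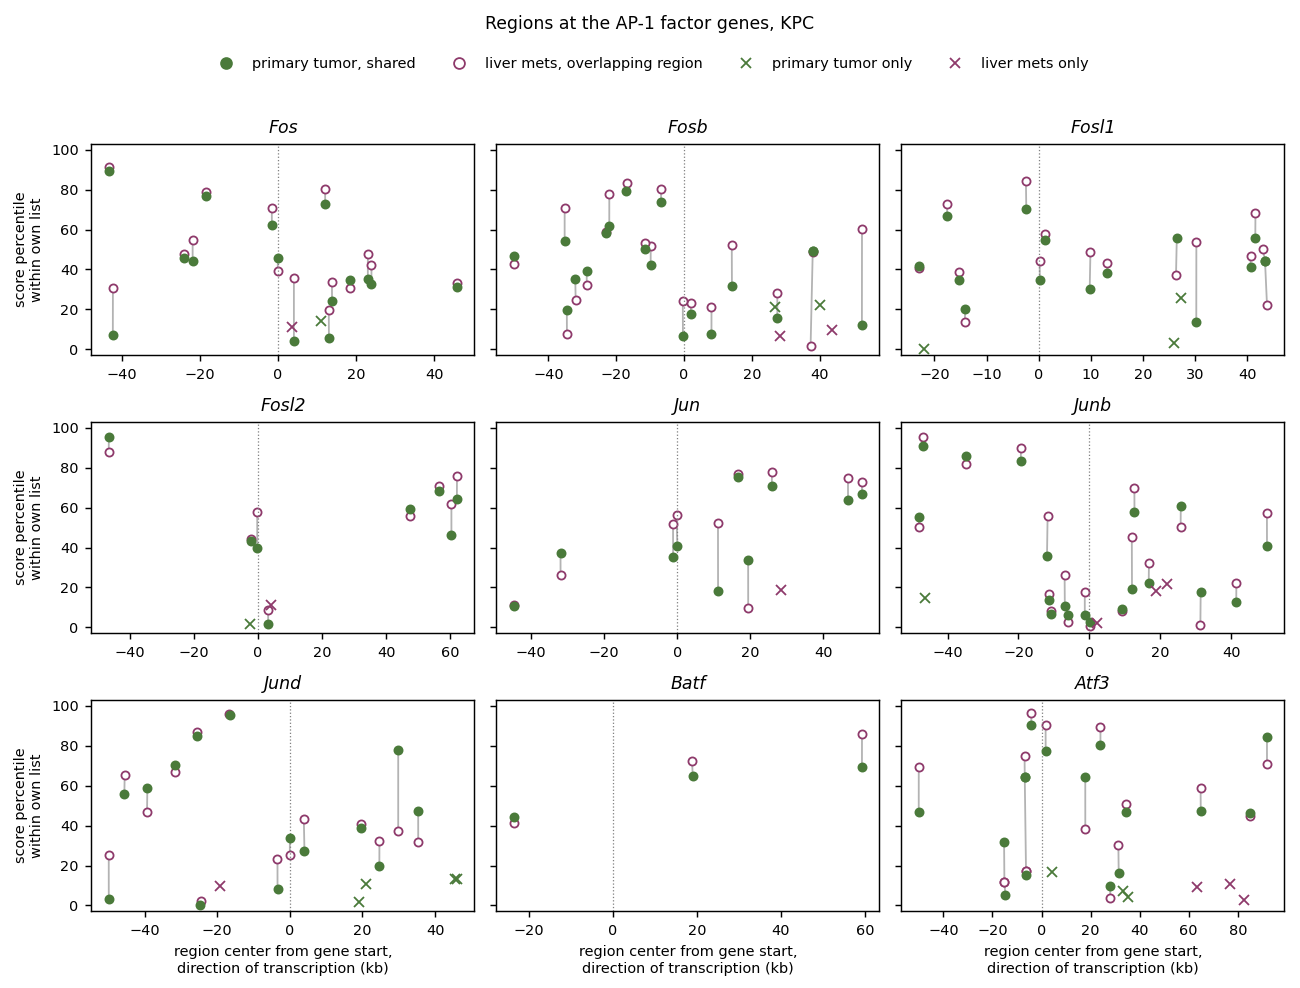
Score percentile within its own list (vertical axis) of every region at the 9 AP-1 genes in the KPC cell lines, by distance of its center from the gene's outermost start in kb, positive in the direction of transcription (horizontal axis). Filled points are primary tumor regions, joined by gray lines to the open points of all overlapping mets regions, and crosses are regions in 1 list only. Batf has 3 regions in each list, and no cross lies above percentile 26.0.

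Single regions at Fosb, Fosl1 and Jun rose most, and a region at Jund fell most. A region at the start of Vasp, 52.5 kb from the Fosb start (chr7:19257441-19257753), rose from 12.4 to 60.5. A region in Efemp2, 30.3 kb from the Fosl1 start and with AP-1 letters (chr19:5477687-5477911), rose from 13.6 to 53.9. At Jun, chr4:95040752-95041298, 11.2 kb from the start and with AP-1 letters, rose from 18.1 to 52.4, and near Fos the region 4.10 kb from the start (chr12:85477882-85478107) rose from 4.21 to 35.9. At Jund a region in Pde4c with AP-1 letters (chr8:70728563-70729014, 29.8 kb from the start) fell from 77.9 to 37.4. At Atf3 the intronic region 17.8 kb from the start, with AP-1 and FOXA letters, fell from 64.5 to 38.5, while the region 1.69 kb from the start shown first above rose from 77.6 to 90.2. The strongest Atf3 region, 4.19 kb upstream, was at 90.3 and 96.3. Batf had the sparsest locus, with 3 regions in each list and all 3 shared.

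Of the 131 primary tumor regions 15 were tumor-only, 11.5% (7.06 to 18.0), against 8.51% of the whole list and 12.4% in the same score deciles. Of the 129 mets regions 12 were mets-only, 9.30% (5.40 to 15.6), against 20.2% of the whole list and 22.6% in the same score deciles, both above the interval. Away from coding start sites 9 of 80 mets regions were mets-only (11.3%, against 23.7% of all such regions), and near them 3 of 49 (6.12%, against 8.39%). Near coding start sites 7 of 52 primary tumor regions were tumor-only (13.5%, against 5.57%). These regions were again weak, with highest percentiles of 26.0 in primary tumor, at the start of Efemp2 (chr19:5474527-5475229), and 21.6 in mets, near Rnaseh2a (chr8:84956800-84957014). Jund held 4 of the tumor-only regions, Fosl1 and Atf3 3 each, and Junb and Atf3 3 mets-only regions each. The small counts leave wide intervals, and the shares moved with the settings given in the closing section.

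The 2 species were set beside each other by aligning the regions at each human locus with those at the mouse locus. This comparison was chosen after the regions had been seen. Of 162 human regions, 63 aligned with a region of the orthologous locus, with a median identity of 76.0% over 313 bp, and 8 aligned with a region of another member's locus. FOSB had the most, 13, followed by FOSL1 with 12 and FOS with 10, and BATF had none. Aligned control regions had a median percentile of 67.3, and the 94 not aligned had one of 43.3. Of the aligned control regions 3 of 63 were control-only (4.76%), and of the others 22 of 94 (23.4%). Over the whole list control-only regions had a median percentile of 17.9, so these 2 contrasts are not separate. Where both changes could be read, in 56 pairs, 23 were higher in HNF4G-KO and in mets, 18 lower in HNF4G-KO and higher in mets, 8 lower in both and 7 higher in HNF4G-KO and lower in mets. Of 9 aligned regions that fell in HNF4G-KO, 6 had a higher percentile in mets and 3 rose by 10 points or more. Over all shared KPC regions 30.8% rose by as much and the median change was 3.67 points. A link between the human and mouse changes was not tested. With the strongest overlapping region as the partner, the 9, 6 and 3 regions became 8, 5 and 2.

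The region that differs is that of the first ATF3 sequence pair, with 164 aligned bases at 73.8% identity, where the human fall rests on the longest overlap and the mouse region rose by 12.6 points in mets. The region 57.5 kb from the FOSL2 start (73.8% over 458 bases, AP-1 letters in both) fell from 67.4 to 48.9 in human and rose from 46.1 to 62.0 in mouse. The weak region just upstream of JUN and Jun (73.2% over 179 bases) was at 30.3 and 13.0 in human and at 35.0 and 51.8 in mouse. The promoter region of FOSL2 and Fosl2 had the longest alignment, 1133 bases at 76.6%, and the regions with the CArG box aligned over 249 bases at 86.7%. At JUN a weak region 14.7 kb from the human start and 19.4 kb from the mouse start fell in both, from 43.4 to 20.4 and from 33.8 to 9.78. AP-1 letters were in both regions of 16 aligned pairs, in the human one only of 3 and in the mouse one only of 5.

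AP-1 sites at the loci of the AP-1 genes were not more frequent than elsewhere. TGAGTCA or TGACTCA, searched on both strands, was in 41 of 157 control regions (26.1%, 19.9 to 33.5, against 31.4% of all), in 38 of 142 HNF4G-KO regions (26.8%, against 31.8%), in 41 of 131 primary tumor regions (31.3%, against 38.3%) and in 40 of 129 mets regions (31.0%, against 36.4%). Start-site regions made up more of the loci than of the lists (33.8% within 1 kb of a coding start site in control, against 19.0%), and away from start sites the shares were 28.8% and 34.5% in control. Atf3 had 9 regions with AP-1 letters in each KPC list, Fosb had 9 in primary tumor and 8 in mets, and ATF3 had 7 in each HPAF-II list. FOS had 2 in each HPAF-II list, and Fos and Batf had 1 in each KPC list. Shared control regions with AP-1 letters had a median change of −1.79 points (40 regions), and those without had one of −0.494 (92 regions), against −4.98 and −4.43 over all shared regions.

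Other letters were few. The cAMP response element was in 5 of 157 control regions (3.18%, 1.37 to 7.24, against 0.872% of all), at FOSB, FOSL2, JUND and ATF3. CCGGAAGT, the ETS site, was in 8 (5.10%, 2.60 to 9.73, against 1.75%), and a CArG box in 6 (3.82%, against 2.49%). FOXA letters were in 16 (10.2%, against 9.76%), ACATTCCA, the TEAD site, in 5 (3.18%, against 3.60%) and GATA letters in 8 (5.10%, against 6.63%). HNF4 letters were in 3 (1.91%, 0.652 to 5.47, against 1.60%). Further than 1 kb from coding start sites, the cAMP response element and the ETS site were each in 3 of 104 control regions. That is 2.88%, against 0.433% and 0.676% of all such regions. In the HNF4G-KO list these 2 sites were in 3.52% and 4.93% of regions at the loci, against 0.949% and 2.00% of all. In primary tumor they were in 2.29% and 4.58%, against 1.47% and 2.71%. In mets they were in 1.55% and 5.43%, against 1.24% and 2.27%.

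Start sites of other genes of the AP-1 network were read as the strongest region in each list. Over all coding genes 10.5% fell and 5.32% rose in HPAF-II by this measure, and 7.26% fell and 16.0% rose in KPC. Of 12 bZIP partners and relatives, such as JDP2, MAFF and BACH1, all 12 had a start-site region in both HPAF-II lists, 0 fell and 1 (BACH1) rose. Of 13 upstream kinases and regulators, such as MAPK8, which encodes a Jun kinase, and SRF, all had one, 2 fell (MAPK3 and ELK3) and 3 rose (MAPK8, MAPK9 and MAP2K4). Of 12 target genes 1 fell (CCND1) and 1 rose (IL11). Median changes were 0.720, 1.13 and 0.192 points in the 3 lists, against 3.89 at the AP-1 genes and −0.601 over coding genes, and no difference between lists was tested. Control-only shares at the 3 lists were 16.6%, 21.1% and 19.0%, beside 15.9% at the AP-1 genes themselves and 25.0% over the whole list. In the KPC pair 6 of the 11 relatives with a start-site region rose in mets (Batf2, Atf4, Maff, Mafg, Mafk and Nfe2l2) and none fell, 4 of 13 regulators rose and none fell, and 3 of 10 targets rose (Plaur, Axl and Dusp6) and none fell. At the targets 2 of 135 primary tumor regions were tumor-only (1.48%, against 8.51% of the whole list) and 16 of 153 mets regions were mets-only (10.5%, against 20.2%).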

How the data were processed

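ATAC-seq was performed on 16 samples by the Omni-ATAC protocol, 4 replicates per group, and groups were read from the sample titles. The authors deposited 1 BED file per group with a score per region. How replicates were combined, the calling threshold and any offset of read ends for the transposase cut are not given in the sources used here. The submitters' processing notes name Bowtie2 2.2.6, MACS2 2.1.1.20160309 and DiffBind, and the builds hg38 and mm10, inside whose chromosomes all regions lay. Totals of reads per sample are not given, so the depth is unknown. A deeper library yields more weak regions, and one-list counts mix calling power with accessibility.

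Scores were ranked within their own list. Each shared region was paired with its longest overlap. Gene bodies and start sites came from GENCODE v44 (human) and vM21 (mouse), read in Python 3.11.15 with pandas 2.3.3, NumPy 2.4.6, SciPy 1.17.1 and statsmodels 0.14.6 (Wilson intervals), and figures were drawn with matplotlib 3.10.9. Coordinates are 1-based, and all sequences were read from the hg38 and mm10 genomes. Start-site regions lay within 1 kb of an annotated start. Regions were aligned with blastn (BLAST+ 2.17.0, E-value at most 1e-05). The overlap and ranking code was tested on simulated lists. No count test was possible on scores, and no p-value was computed. Genes are named as follows: all members, their start-site regions, their one-list regions, shared regions changing by 10 points or more, the strongest region away from start sites, and the nearest neighbors. The members, gene lists, letters searched and tests were chosen with earlier results of these data known, and the sequences shown were chosen after the regions had been seen. Alternatives covered the overlap, the score threshold, lists of equal size, windows of 10 and 100 kb, start sites of other genes, ranks among shared regions and 1-to-1 pairs. Pairing with the strongest overlapping region was added after seeing the data.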

Additional observations from a re-analysis of the deposited data

How the results depend on the processing

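The 6 comparisons were recomputed under 40 alternatives, and in 33 the value stayed within its main 95% interval (Wilson for shares, binomial for medians). With lists of equal size (the strongest 90% of the shorter list's number from each), 7.81% of control regions and 8.21% of HNF4G-KO regions at the loci were in 1 list, against 13.7% and 11.7% over the lists, and 3.23% of mets regions, against 13.0%. With regions within 500 bp counted as shared, 5.34% of primary tumor regions were tumor-only, below the 7.09% of the whole list, where the main value lay above its list. With the upper 50% of each list by score, 29.1% of 55 mets regions were mets-only, above the 22.2% of the whole list, where the main value lay below it. The other alternatives, 38 of 40, kept each value on its side of the whole list. Ranked among shared regions, the median change in HPAF-II was 3.88 points, and within 10 kb the median change in KPC was 9.51 points. Pairing each region with the strongest overlapping one, an alternative chosen after seeing the data, gave −0.685 and 5.79 points. For the medians of single loci, 48 of 51 alternatives stayed within the interval, and 50 of 51 kept their side of the whole list, Fosl1 among shared ranks being the exception (−0.206 against 0.988). No paired analysis was possible because each group had 1 list, and leaving out replicates was not run for the same reason.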

Other observations

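Each group was 1 list, so the spread between replicates could not be set beside any difference, and no change at a single region has an error. The HNF4G-KO cells were a pool of 3 clones and each KPC group was 1 cell line, so clone and condition cannot be told apart. Percentiles rank regions and do not give an amount of accessibility. Accessibility near a gene is not its expression, which was not analysed here. At loci with many neighbors, such as those of FOSL1 with 9 other coding start sites and Junb with 9, a region was not assigned to a gene.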
